A study of Mus musculus with 8 samples.

Results

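The set described here is the expressed long intergenic noncoding RNAs (lincRNAs) of mouse brown adipose tissue. These are transcripts whose annotated genes lie mostly between protein-coding genes. Members were chosen by their deposited FPKM (fragments scaled by transcript length and by a divisor for each library). A gene qualified if the table gave it the biotype lincRNA and at least 1 FPKM in at least 4 of the 8 libraries. The imprinted transcripts H19, Meg3, Rian and Mirg were left out by name. By this rule 120 genes were members, out of 5559 lincRNA rows and 54532 rows in all. H19 was the 1 row left out by name that would have passed as a lincRNA.

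RNA was sequenced from brown adipose tissue of 4 wild-type mice (WT, numbered 1, 2, 3 and 5) and 4 transgenic mice (TG, also numbered 1, 2, 3 and 5), named CLCF1-ATG in the study. CLCF1 is a secreted cytokine of the interleukin-6 family. The promoter that drives the transgene, the founder line, and the strain, age and sex of the mice were not given in the sources used here. One aim was to learn how CLCF1 impairs brown fat. Xist, the lincRNA that coats the inactive X chromosome of female cells, was at 0 FPKM in 7 libraries and at 0.00234 FPKM in TG 1, and the Y-linked gene Ddx3y was at 22.9 FPKM or more in all 8. The titles number the libraries within each group of 4 mice, and p-values measure only the spread between these libraries.

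Long intergenic noncoding RNAs are transcribed by RNA polymerase II and usually spliced and polyadenylated, but are not known to be translated into long proteins. Some act in the nucleus, as the scaffolds of nuclear bodies or near their own site of transcription. Others act in the cytoplasm by binding proteins or microRNAs, and some serve mainly as hosts from whose introns small nucleolar RNAs or microRNAs are cut. In brown fat a few are induced during adipocyte differentiation and are needed for the thermogenic programme.

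The libraries held 13734231 to 15751302 recovered reads in WT and 18494022 to 20183840 in TG mice. Mitochondrial transcripts took 24.1% to 37.5% of the reads in WT and 6.09% to 7.34% in TG mice, so every share of the whole library is set against a different remainder in the 2 groups. All 7 brown adipocyte markers fell (summed level 6969 to 9853 FPKM in WT, 622 to 1030 FPKM in TG mice) and all 5 general adipocyte markers rose (6611 to 8668 FPKM against 19435 to 30625 FPKM). Of the other lists, 4 of 5 macrophage markers rose (129 to 201 FPKM against 229 to 266 FPKM). All 3 tested endothelial markers fell (39.8 to 82.4 FPKM against 8.65 to 18.8 FPKM). Of 4 fibroblast markers 3 rose and 1 fell (144 to 179 FPKM against 550 to 673 FPKM). Skeletal muscle markers were highest in WT 2 (2433 FPKM) and TG 5 (1371 FPKM), against 11.5 to 226 FPKM in the other libraries. Neutrophil markers ranged from 11.6 to 368 FPKM in WT and 3.81 to 25.04 FPKM in TG mice. T and B cell markers summed to 0.560 to 3.22 FPKM in WT mice and to 7.17, 10.6, 7.77 and 0.978 FPKM in TG mice, and the 2 tested did not pass. Schwann cell markers summed to 5.196 to 7.67 FPKM over all libraries. The 2 Ccl21a rows of the lymph node list were at 0 apart from 0.211 FPKM in WT 1 and 0.417 FPKM in TG 1, both in the same row. Cr2, also on that list, was at 0 FPKM in the WT mice and 0.171, 0.2503, 0.146 and 0.00538 FPKM in the TG mice. The part of these cell types in the lincRNA results was not tested, and in tissue RNA fewer cells of a type and less RNA per cell cannot be told apart.

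Members were mostly low. A mean of at least 10 FPKM was reached by 14 of them, 54 had a mean of 2 to 10 FPKM and 52 a mean under 2 FPKM. They gave 0.136% to 0.169% of the reads in WT and 0.138% to 0.147% in TG mice. The 3 highest, Gm10076, AW112010 and Gm44386, held 39.5% of the summed FPKM of all members. Over the 8 libraries a member had between 40 and 37677 reads, with a median of 409, and 47 had under 10 reads in at least 1 library. The spread between mice was wide: the median coefficient of variation was 35.5% in WT and 25.9% in TG mice for the members, against 21.4% and 13.9% for all tested genes. Protein-coding genes with a mean of 1 to 10 FPKM had 20.6% and 12.97%. By name, 62 members carried a Gm number and 36 a Rik clone name, which say nothing of a role. RefSeq listed 74 of the 82 members found there as long noncoding RNA and 6 as protein-coding, Tmem250-ps, 1810058I24Rik, Gm6712, Gm39469, D930016D06Rik and Gm37494.

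All 8 libraries were at 1 FPKM or more for 54 members, 5 to 7 libraries for 37, and exactly 4 libraries for 29. Among the last, 9 reached the floor in all 4 WT and no TG libraries (among them Gm10032, Gm9961, Gm48287, Gm36355, C030037D09Rik, 2810405F17Rik, A730020M07Rik and A530065N20Rik). Another 4 reached it in all 4 TG and no WT libraries (Gm43091, Gm5627, Gm48832 and Gm44421). These 13 entered through 1 group alone and had to differ between the groups, so their separation is a description, and no p-value of theirs is given. Just inside the floor were Gm45572, A730020M07Rik and Gm47267, whose library of rank 4 stood at 1.01, 1.04 and 1.04 FPKM. Just outside it were 1110006O24Rik at 0.995, Gm6634 at 0.988 and B930092H01Rik at 0.977 FPKM.

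Between TG and WT mice, 54 of the 120 members (45%) passed the test (limma on log2(FPKM + 1), Benjamini-Hochberg adjusted p under 0.05 over all 12508 tested genes), beside a background of 44.1% of all tested genes. Of the members 19 rose (15.8%, against 22.3% of all tested genes) and 35 fell (29.2%, against 21.8%), while 66 did not pass. Without the 13 members that entered through 1 group alone, 41 of 107 passed (38.3%), 15 higher and 26 lower. The WT and TG values did not overlap for 50 members (41.7%, against 42.6% of all tested genes), with TG above in 19 and below in 31. A change of 2-fold or more on this scale was seen in 10 of the members that rose (8.33% of all members, against 5.12% of all tested genes) and 17 of those that fell (14.2%, against 7.78%). Without the 13 these were 7 and 10 (6.54% and 9.35% of the 107). The median log2 change was -0.18 over the members and 0.01 over all tested genes. At the same floor of 1 FPKM in 4 libraries, 119 antisense genes held 21 that rose and 33 that fell, 66 processed transcripts 6 and 20, and 9839 protein-coding genes 2411 and 2269. In the deposited scaling the share of members called was thus 45% with the 13 and 38.3% without them, beside a background of 44.1%. The lincRNA, antisense and processed-transcript classes each held more falls than rises there. That split turned for the lincRNAs in the 2 scalings that follow, where the share called was below the background. With FPKM recomputed against all recovered reads, 31 members rose (25.8%, against 44.3% of all tested genes) and 23 fell (19.2%, against 11.5%), 45% of members against 55.8% of all tested genes. When the deposited values were instead rescaled without the 20 most abundant genes, the mitochondrial genes and the haemoglobin genes, 31 rose and 23 fell as well, against 42.3% and 12.4% of all tested genes (54.6% either way). In those scalings the median of all tested genes moved to 0.32 and 0.28, and that of the members to 0.08 and 0.05. Relative to the median of all tested genes the members' median was -0.20 as deposited, -0.24 and -0.23 in those scalings, and between -0.30 and -0.13 over all settings tried.

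**Figure D1:**
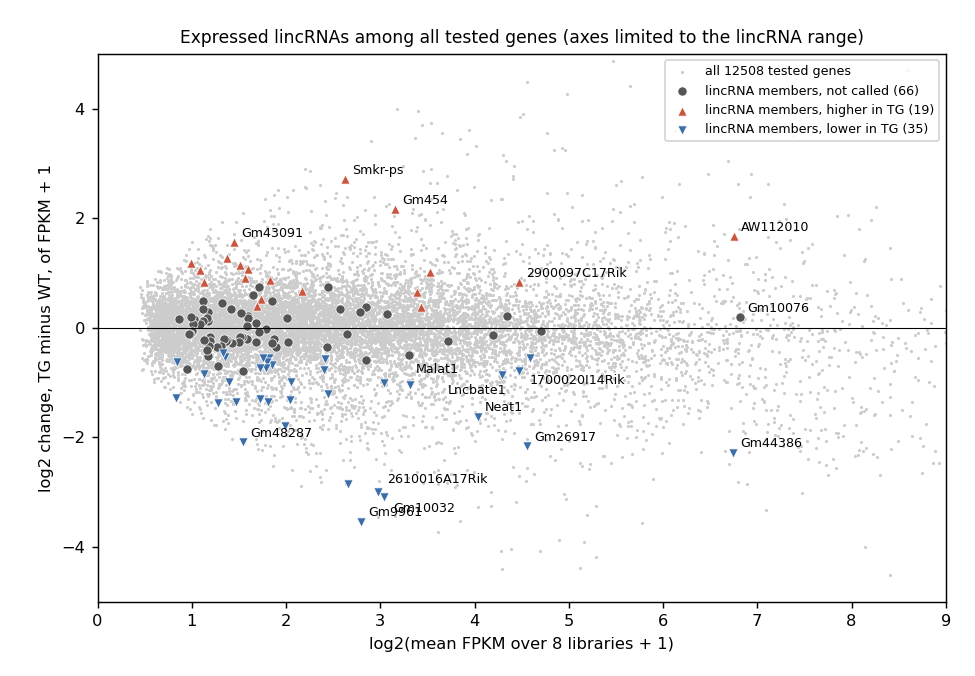
Change of each expressed lincRNA against its level. The x axis is log2 of the mean FPKM over 8 libraries plus 1, and the y axis is the log2 change of FPKM plus 1, TG minus WT. Grey dots are all 12508 tested genes, dark circles the 66 lincRNAs that did not pass, upward triangles the 19 that rose and downward triangles the 35 that fell. The lowest point of the set is Gm9961 at -3.54 and the highest is Smkr-ps at 2.72.

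Some of the largest falls ended under 1 FPKM in every TG mouse. The 4 described first entered through the WT mice alone, so their log2 differences are given as a description. Gm9961 (ENSMUSG00000055015, chr16:11901363-11930600, plus strand; coordinates here and below are those of the table, on mm10) was at 7.29, 12.2, 12.8 and 14.9 FPKM in the WT mice and 0.307, 0, 0 and 0 FPKM in the TG mice. The groups were far apart, with 323 reads in the 4 WT libraries against 4 in the TG libraries, all 4 of them in TG 1 (log2 difference -3.54). It lies on the strand opposite to Cpped1 and overlaps part of its span. The strand used in counting was not given in the sources used here, so reads of overlapping genes cannot be told apart. Gm10032 was at 17.9, 15.1, 14.9 and 7.48 FPKM in the WT mice and 0.763, 0.461, 0.583 and 0.891 FPKM in the TG mice. Every TG value was under 1 FPKM, and the lowest WT value was several times higher (log2 difference -3.09). Gm48287 was at 5.92, 4.72, 3.50 and 1.08 FPKM in the WT mice and 0.0650, 0, 0 and 0.0676 FPKM in the TG mice, which is 124 reads against 2. A530065N20Rik was narrow in both groups, at 1.52, 1.47, 1.48 and 1.67 FPKM in the WT mice and 0.0594, 0.0585, 0.0310 and 0.00772 FPKM in the TG mice. The TG mice were all close to 0 (log2 difference -1.29). Its nearest tested protein-coding gene, 57736 bases away, was Gas1, a membrane protein of growth arrest, which went from 13.4 to 2.91 FPKM (log2 change -1.86, adjusted p = 2.37e-05).

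The RefSeq promoter of Gm9961 is shown as that of the member with the largest fall, and that of AW112010 as the most abundant member that rose (build GRCm38.p6, 250 bases before to 50 bases after the annotated start, read 5′ to 3′ on the gene's strand). Gm9961 is at chr16:11901114-11901413, plus strand, and AW112010 at chr19:11050517-11050816, minus strand. Neither window holds any of the 7 motifs searched, which are given with their shares below, so neither has capitals.
Gm9961: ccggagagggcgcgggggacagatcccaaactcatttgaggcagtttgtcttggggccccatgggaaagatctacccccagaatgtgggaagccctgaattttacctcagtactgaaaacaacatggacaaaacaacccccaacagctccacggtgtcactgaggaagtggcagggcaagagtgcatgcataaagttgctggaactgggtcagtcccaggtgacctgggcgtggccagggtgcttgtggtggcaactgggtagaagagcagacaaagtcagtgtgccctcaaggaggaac
AW112010: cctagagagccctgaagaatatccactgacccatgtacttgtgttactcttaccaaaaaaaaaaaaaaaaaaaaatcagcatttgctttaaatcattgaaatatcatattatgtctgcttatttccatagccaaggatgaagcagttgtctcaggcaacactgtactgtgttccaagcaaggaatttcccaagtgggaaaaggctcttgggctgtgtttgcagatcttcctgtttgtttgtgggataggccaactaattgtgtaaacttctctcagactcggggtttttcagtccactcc

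Among abundant members the largest fall was that of Gm44386. It was at 176, 170.0, 205 and 152 FPKM in the WT mice and 28.8, 28.9, 52.1 and 35.2 FPKM in the TG mice. All 4 TG values lay below the lowest WT value by a wide margin (log2 change -2.28 ± 0.19 (SE), adjusted p = 1.8e-05). Gm26917 was at 37.8, 15.5, 44.9 and 54.1 FPKM in the WT mice and 8.87, 6.24, 6.94 and 6.21 FPKM in the TG mice, and the groups did not overlap (log2 change -2.16 ± 0.33 (SE), adjusted p = 0.000643). The Gm26917 span ends 12 bases before the ribosomal RNA row CT010467.1, which went from 233 to 148 FPKM (log2 change -0.65, adjusted p = 0.0109). Whether Gm26917 reads come from ribosomal RNA was not tested. Gm49123 fell from 5.19 ± 1.16 FPKM in WT to 0.779 ± 0.267 FPKM in TG mice (SD, n = 4 each), with no overlap (log2 change -1.79 ± 0.16 (SE), adjusted p = 2.47e-05). Gm34474 and Gm33838, which have no described role, fell by 1.32 and 1.30 on the log2 scale.

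The largest rises included members with little signal in WT mice and the abundant AW112010. Smkr-ps, named as a pseudogene, was at 1.31, 0, 0.498 and 0.963 FPKM in the WT mice and 9.43, 9.32, 9.17 and 10.6 FPKM in the TG mice. The 4 TG mice were close to each other and all above the highest WT mouse (log2 change 2.72 ± 0.23 (SE), adjusted p = 1.89e-05). Gm454 was at 3.05, 1.19, 1.502 and 3.61 FPKM in the WT mice and 11.3, 16.3, 15.3 and 10.9 FPKM in the TG mice. Its groups were apart (log2 change 2.16 ± 0.25 (SE), adjusted p = 0.000124), but 597 of its 751 bases match the protein-coding gene Nxpe5 at 93.5% identity, so its counts are uncertain. Nxpe5 itself had means of 0.361 and 0.714 FPKM and did not pass the test. AW112010, an RNA induced in immune cells by inflammatory stimuli, was at 54.8, 38.3, 41.0 and 68.6 FPKM in the WT mice and 121, 166, 209 and 155 FPKM in the TG mice. It was the most abundant member that rose, and its lowest TG value was above its highest WT value (log2 change 1.68 ± 0.21 (SE), adjusted p = 0.000237). In the same libraries 4 of 5 macrophage markers rose, as given above. The summed T and B cell markers were low, but higher in TG 1, TG 2 and TG 3 than in any WT mouse. The part of these cells in the rise of AW112010 was not tested. In order of size the next rises were Gm43091 at 1.56, Gm35552 at 1.27, Gm44421 at 1.19, Gm42595 at 1.16, Gm32200 at 1.07 and Gm48832 at 1.06 on the log2 scale. Each of these 6 was under 2 FPKM in every WT mouse, and Gm43091, Gm44421 and Gm48832 entered through the TG mice alone. Gm44421 lies 3228 bases from Klf15, a transcription factor of metabolic genes that went from 3.99 to 36.8 FPKM (log2 change 2.95, adjusted p = 2.51e-06). Gm42595 lies 896 bases from the RNA helicase gene Ddx51, which went from 2.55 to 6.53 FPKM (log2 change 1.12, adjusted p = 0.00133).

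**Figure D2:**
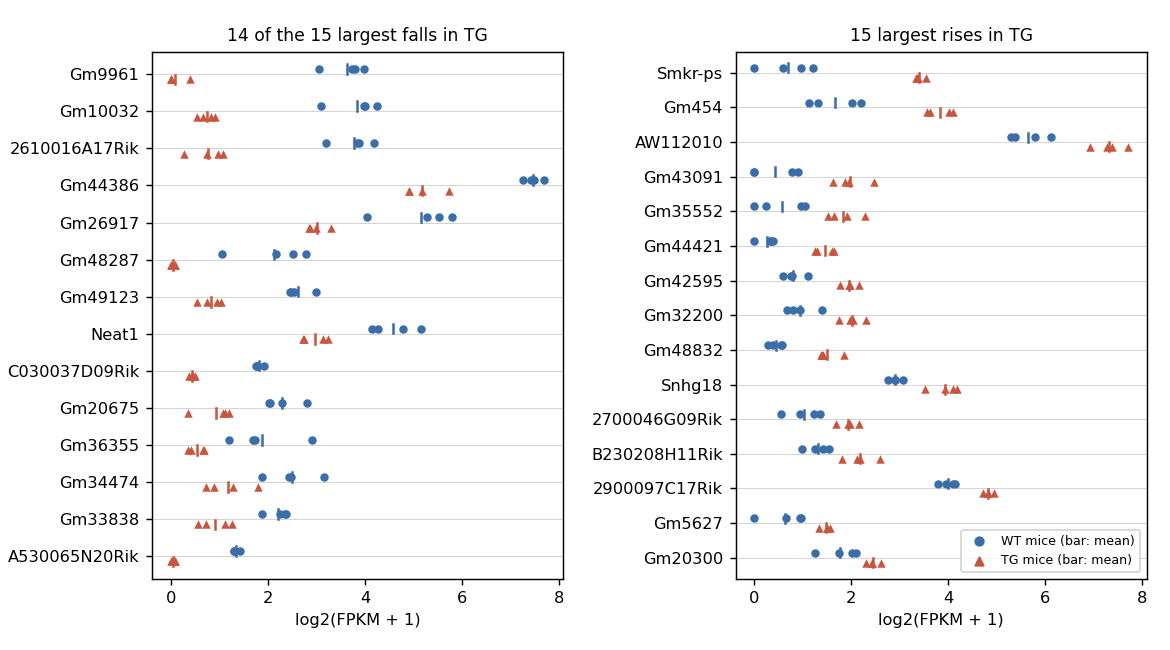
Values of 14 of the 15 lincRNAs with the largest falls (left) and the 15 with the largest rises (right) among those that passed the test and whose groups did not overlap. The x axis is log2(FPKM + 1); circles are the 4 WT mice, triangles the 4 TG mice and short bars their means. In Gm9961, Gm48287 and A530065N20Rik the TG mice sit near 0, and in Smkr-ps they sit together between 9.17 and 10.6 FPKM.

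Members with a described nuclear role differed in their changes. Neat1 is the scaffold of paraspeckles, nuclear bodies that hold the proteins Nono, Sfpq and Pspc1. It was at 18.3, 26.5, 16.6 and 34.5 FPKM in the WT mice and 7.83, 5.70, 5.61 and 8.38 FPKM in the TG mice. The highest TG mouse lay below the lowest WT mouse (log2 change -1.62 ± 0.23 (SE), adjusted p = 0.000409). These values are for the whole gene, so its 4 annotated transcripts cannot be told apart. Malat1, which is retained in nuclear speckles and lies beside Neat1 on chromosome 19, was at 8.65, 12.6, 8.76 and 11.2 FPKM in the WT mice and 12.1, 7.42, 4.36 and 5.79 FPKM in the TG mice. Its groups overlapped, with TG 1 among the highest values and the other TG mice below every WT mouse (log2 change -0.49 ± 0.25 (SE), adjusted p = 0.142). Without TG 1 Malat1 passed the test, with an adjusted p of 0.0164 by limma. In the scalings by all recovered reads and without abundant genes its log2 changes were -0.11 and -0.15. Whether Neat1 and Malat1 differ in their change was not tested. Of 15 paraspeckle proteins, Nono went from 17.1 to 24.3 FPKM (log2 change 0.49, adjusted p = 0.00256) and Hnrnpk from 36.0 to 49.5 FPKM (log2 change 0.45, adjusted p = 0.0108), and both rose, Dazap1 fell from 14.3 to 9.65 FPKM (log2 change -0.54, adjusted p = 0.00641), and 12 did not pass. In each of the 2 other scalings 7 of the 15 rose and the call of Dazap1 was lost (adjusted p = 0.357 and 0.240). Of 14 proteins of nuclear speckles and of the Malat1 triple helix, the splicing factors Srsf11 and Srsf6 fell, the helicase Ddx39b rose and 11 did not pass. Srsf11 went from 14.4 to 7.42 FPKM (log2 change -0.81, adjusted p = 0.00981). In the 2 other scalings 6 and 5 of the 14 rose, and Srsf11 and Srsf6 lost their calls. The X inactivation list held 12 tested genes, of which 3 rose, none fell and 9 did not pass, and none of them was a member. In each of the 2 other scalings 7 rose. Beside these 3 lists, 22.3% of all tested genes rose and 21.8% fell as deposited. By all recovered reads 44.3% rose and 11.5% fell, and without abundant genes 42.3% rose and 12.4% fell.

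Members with a described cytoplasmic role moved in different directions. 2900097C17Rik, listed by RefSeq as Norad, binds Pumilio proteins. It was at 14.4, 16.1, 16.6 and 12.9 FPKM in the WT mice and 27.5, 27.3, 29.7 and 25.5 FPKM in the TG mice. The groups were narrow and apart (log2 change 0.84 ± 0.11 (SE), adjusted p = 0.000232). 1700020I14Rik, listed by RefSeq as Oip5os1 and known as Cyrano, carries a site for miR-7 and promotes decay of that microRNA. It was at 28.9, 27.2, 26.03 and 26.02 FPKM in the WT mice and 14.5, 14.4, 16.9 and 15.2 FPKM in the TG mice. Here too the groups were narrow and apart, in the other direction (log2 change -0.79 ± 0.09 (SE), adjusted p = 0.000145). The fall was smaller in the 2 other scalings (log2 changes of -0.38 and -0.43, limma adjusted p = 0.0134 and 0.00274). 1810058I24Rik, listed by RefSeq as a protein-coding gene for a small mitochondrial protein, was at 18.2, 14.8, 17.9 and 20.3 FPKM in the WT mice and 17.3, 21.8, 23.7 and 20.9 FPKM in the TG mice, and the groups overlapped (log2 change 0.22 ± 0.13 (SE), adjusted p = 0.188). In the 2 other scalings it rose (log2 changes of 0.63 and 0.58, limma adjusted p = 0.000843 and 0.00192). Tmem250-ps was at 25.6 ± 3.60 FPKM in the WT group and 24.5 ± 2.44 FPKM in TG mice, with overlap. Gm10076, the member with the highest mean, spans 384 bases, of which 383 match the ribosomal protein gene Rpl41 at 99.5% identity. It was at 258, 49.4, 72.5 and 72.3 FPKM in the WT mice and 116, 155, 117 and 54.5 FPKM in the TG mice, with WT 1 far above the other WT mice (log2 change 0.19 ± 0.49 (SE), adjusted p = 0.777). Since the counting could split reads between Gm10076 and Rpl41, its level is uncertain. In all, 14 members had a copy of at least 90% identity over at least 50% of their length.

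**Figure D3:**
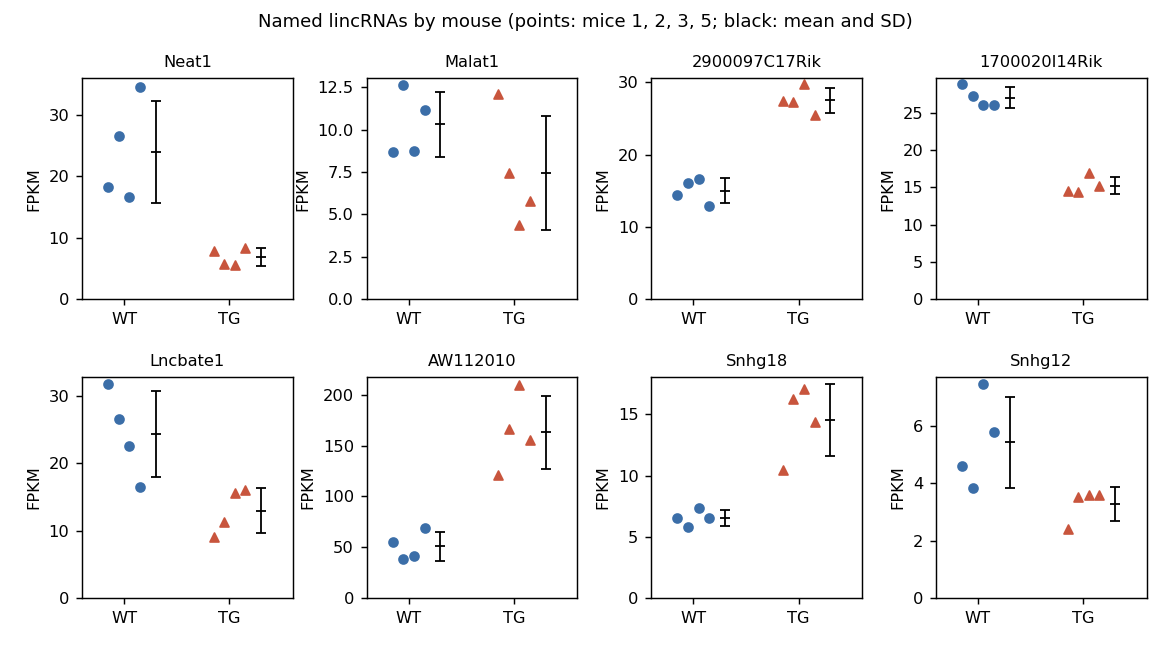
FPKM by mouse for 8 named lincRNAs, each panel with its own linear y axis from 0. Circles are WT mice 1, 2, 3 and 5 and triangles TG mice 1, 2, 3 and 5, in that order; black marks give the mean and SD (n = 4). Neat1, 1700020I14Rik, Lncbate1 and Snhg12 are lower in TG mice with no overlap, 2900097C17Rik, AW112010 and Snhg18 higher with no overlap, and Malat1 overlaps.

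Of the transcripts listed as known from fat, Lncbate1 was the only member (H19 was left out by name). It is a brown-fat lincRNA needed for the thermogenic programme of brown adipocytes, and was at 31.7, 26.5, 22.5 and 16.5 FPKM in the WT mice and 9.09, 11.2, 15.6 and 16.0 FPKM in the TG mice. The lowest WT mouse was just above the highest TG mouse (log2 change -0.85 ± 0.22 (SE), adjusted p = 0.0121). Divided by all recovered reads the log2 change was -0.45 (limma adjusted p = 0.128), and rescaled without the abundant genes it was -0.50 (adjusted p = 0.0625), so the call was lost in both. The 7 brown adipocyte markers fell with it. Of the 20 listed fat transcripts, Blnc1 and Lncbate10 had no row and 10 were tested: 3 rose (Hoxaas3, Peg13 and Gm15551), 3 fell (Lncbate1, Ctcflos and 2310069B03Rik) and 4 did not pass. In each of the 2 other scalings 5 rose and 1 fell, and Ctcflos was among the calls lost. Of all tested genes 22.3% rose and 21.8% fell as deposited. In the 2 other scalings 44.3% and 42.3% rose, and 11.5% and 12.4% fell. Gm15551 went from 6.74 to 18.5 FPKM (log2 change 1.54, adjusted p = 0.00775) and Ctcflos from 3.47 to 2.47 FPKM (log2 change -0.37, adjusted p = 0.0218); both carry the biotype antisense. The cardiac lincRNA Bvht was at 5.95, 3.83, 5.60 and 16.6 FPKM in the WT mice and 5.34, 2.90, 5.07 and 4.12 FPKM in the TG mice, with WT 5 high and the rest overlapping (log2 change -0.59 ± 0.35 (SE), adjusted p = 0.208). Gm27202, which lies 8210 bases from the brown-fat regulator gene Prdm16, was at 4.48, 5.66, 6.61 and 10.1 FPKM in the WT mice and 9.01, 8.12, 10.002 and 5.198 FPKM in the TG mice and overlapped (log2 change 0.25 ± 0.24 (SE), adjusted p = 0.412). By all recovered reads it passed (log2 change 0.63, limma adjusted p = 0.0351). Gm20675, which starts 163 bases from the brown-fat transcription factor gene Ebf2, is described with the divergent pairs below.

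Small RNA hosts were taken from the whole table, since the rule selects only those with the lincRNA biotype. Of 27 such rows 17 were tested and 6 of these were members. Of the 17, 1 rose (Snhg18), 9 fell and 7 did not pass, beside 22.3% and 21.8% of all tested genes that rose and fell. The median of their log2 changes was -0.34. In the 2 other scalings 3 and 2 rose, 2 and 3 fell, and the medians were -0.01 and -0.05. Of all tested genes 44.3% and 42.3% rose in those scalings, and 11.5% and 12.4% fell. Snhg18, the host of Snord123, was at 6.51, 5.80, 7.39 and 6.52 FPKM in the WT mice and 10.5, 16.2, 17.1 and 14.4 FPKM in the TG mice. Its groups were apart (log2 change 1.02 ± 0.15 (SE), adjusted p = 0.000528). Snhg20 was at 2.92, 3.35, 2.64 and 5.0003 FPKM in the WT mice and 2.04, 1.44, 1.69 and 1.86 FPKM in the TG mice, also apart and lower in TG mice (log2 change -0.68 ± 0.16 (SE), adjusted p = 0.00778). Snhg12, which spans 5 small nucleolar RNA rows, was at 4.59, 3.84, 7.45 and 5.78 FPKM in the WT mice and 2.39, 3.52, 3.59 and 3.60 FPKM in the TG mice. The groups were apart by a small gap (log2 change -0.57 ± 0.18 (SE), adjusted p = 0.0307). The call was lost in 7 of 20 alternative settings, among them leaving out WT 3, WT 5, TG 1 or TG 2 and the 2 other scalings (log2 changes of -0.22 and -0.26, limma adjusted p = 0.271 and 0.205). Snhg20 also lost its call in both scalings (log2 changes of -0.37 and -0.41, limma adjusted p = 0.0758 and 0.0860). Snhg6 was at 12.4, 14.8, 13.3 and 12.1 FPKM in the WT mice and 7.43, 11.7, 14.9 and 11.002 FPKM in the TG mice, Snhg10 had means of 1.03 and 0.961 FPKM, and neither passed the test. The log2 changes of Snhg6 (-0.24) and Snhg10 (-0.06) were above 0 in the 2 other scalings, at 0.16 and 0.11 and at 0.15 and 0.12. The hosts outside the lincRNA class that fell were Gas5, Snhg1, Snhg4, Snhg5, Snhg15 and Snhg17; Gas5 went from 12.2 to 9.07 FPKM (log2 change -0.39, adjusted p = 0.0253) and Snhg15 from 3.24 to 1.31 FPKM (log2 change -0.83, adjusted p = 0.00936). Of these 6, Gas5, Snhg1, Snhg5 and Snhg17 lost their calls in both scalings and Snhg4 by all recovered reads. Mir17hg is a lincRNA below the floor of the rule and went from 1.28 to 0.387 FPKM (log2 change -0.70, adjusted p = 0.00330).

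RefSeq mature microRNAs lie within the spans of 6 members, on the same strand in 5 of them. The sequences for the 2 hosts that fell are given with the seed, bases 2 to 8, in capitals; the 4 seeds differ from each other. The table measures the hosts and not the mature microRNAs. 6720427I07Rik, which spans let-7d, was at 2.44, 2.52, 3.40 and 4.63 FPKM in the WT mice and 1.31, 1.52, 1.83 and 2.28 FPKM in the TG mice. Its groups were apart by a small gap (log2 change -0.62 ± 0.18 (SE), adjusted p = 0.0193), and the call was lost in the 2 other scalings (log2 changes of -0.32 and -0.36, limma adjusted p = 0.129 and 0.127). Mir142hg, which spans the blood-cell microRNA miR-142, was at 0, 0.8289, 3.63 and 2.60 FPKM in the WT mice and 2.49, 0.351, 5.53 and 0.811 FPKM in the TG mice and varied widely in both groups.
let-7d-5p in 6720427I07Rik: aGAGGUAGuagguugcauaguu
let-7d-3p in 6720427I07Rik: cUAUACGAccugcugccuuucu
miR-6516-5p in Snhg20: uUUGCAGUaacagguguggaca
miR-6516-3p in Snhg20: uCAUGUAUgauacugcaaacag

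Many lincRNAs start next to a protein-coding gene on the other strand, a divergent arrangement in which both can share a promoter region. A protein-coding gene on the opposite strand with its start within 5 kb was found for 30 members, 23 facing away and 7 overlapping. In 4 of the 30 pairs both passed the test in the same direction, in 4 both passed in opposite directions, in 4 only the lincRNA passed, in 7 only the protein-coding gene, and in 11 neither. Of the 30 members 12 passed (40%, against 44.1% of all tested genes). Of their 30 partners 15 passed, beside 47.6% of protein-coding genes at 1 FPKM in 4 libraries. These shares are near the background, and whether the pairs move together was not tested. In each of the 2 other scalings 5 pairs passed in the same direction and 2 in opposite directions, where 55.8% and 54.6% of all tested genes passed. In C030037D09Rik and Gm43091, of the same-direction pairs, the lincRNA entered through 1 group alone. 2610016A17Rik starts 167 bases from Dmrt2, a transcription factor of the doublesex family. It was at 8.12, 17.1, 13.2 and 13.7 FPKM in the WT mice and 0.688, 0.215, 1.12 and 0.954 FPKM in the TG mice. All TG values were far below all WT values (log2 change -2.995 ± 0.23 (SE), adjusted p = 1.18e-05). Dmrt2 was at 4.56, 7.22, 3.14 and 2.98 FPKM in the WT mice and 0.429, 0.362, 1.10 and 1.19 FPKM in the TG mice, likewise apart (log2 change -1.60 ± 0.25 (SE), adjusted p = 0.000849). C030037D09Rik starts 132 bases from Msi2, an RNA-binding protein. It was at 2.47, 2.43, 2.79 and 2.35 FPKM in the WT mice and 0.300, 0.349, 0.375 and 0.405 FPKM in the TG mice. Both groups were tight (log2 difference -1.37, a description). Msi2 went from 4.77 to 2.87 FPKM (log2 change -0.56, adjusted p = 0.00629), and its call was lost in the 2 other scalings (adjusted p = 0.218 and 0.09996). Snhg18 starts 148 bases from Sema5a, a membrane semaphorin, which was at 0.164, 0.342, 0.201 and 0.145 FPKM in the WT mice and 1.17, 1.13, 0.911 and 1.07 FPKM in the TG mice. It rose as Snhg18 did (log2 change 0.77 ± 0.10 (SE), adjusted p = 0.000285). Gm43091 overlaps Por, the reductase partner of cytochrome P450 enzymes. Por went from 92.7 to 125 FPKM (log2 change 0.43, adjusted p = 0.0258), and Gm43091 was at 0, 0.879, 0.711 and 0 FPKM in the WT mice and 2.68, 2.90, 2.07 and 4.54 FPKM in the TG mice, or 9 against 117 reads.

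The pairs that moved apart were Gm20675 with Ebf2, 2010320M18Rik with Pik3r2, Gm43672 with Tbl1xr1 and 5031425E22Rik with Kmt2e. In each the lincRNA fell and the protein-coding gene rose. Gm20675 was at 6.03, 3.08, 3.12 and 3.88 FPKM in the WT mice and 1.12, 0.279, 1.17 and 1.29 FPKM in the TG mice. Its groups were apart (log2 change -1.36 ± 0.23 (SE), adjusted p = 0.00121). Ebf2, by contrast, was at 2.83, 2.54, 2.37 and 2.75 FPKM in the WT mice and 3.48, 3.40, 4.59 and 3.66 FPKM in the TG mice, with every TG value above every WT value (log2 change 0.40 ± 0.11 (SE), adjusted p = 0.0162). Gm43672 fell from 12.5 ± 3.88 FPKM in WT to 5.35 ± 0.253 FPKM in TG mice (SD, n = 4 each), apart (log2 change -1.05 ± 0.18 (SE), adjusted p = 0.00124; -0.67 and -0.71 in the 2 other scalings), while Tbl1xr1, a subunit of a nuclear corepressor complex, went from 2.74 to 4.54 FPKM (log2 change 0.57, adjusted p = 0.00396). 2010320M18Rik starts 102 bases from Pik3r2, a regulatory subunit of phosphoinositide 3-kinase. It was at 37.4, 21.95, 23.1 and 28.7 FPKM in the WT mice and 14.6, 20.03, 20.99 and 18.2 FPKM in the TG mice, with a small gap between groups (log2 change -0.55 ± 0.18 (SE), adjusted p = 0.0323). That call was lost in 11 of 20 alternative settings, among them leaving out WT 1, WT 5, TG 1, TG 2 or TG 5 and the 2 other scalings (log2 changes of -0.14 and -0.18, limma adjusted p = 0.489 and 0.353). Pik3r2 went from 3.49 to 7.83 FPKM (log2 change 0.99, adjusted p = 0.000425). 5031425E22Rik lost its call in both scalings (log2 changes of -0.25 and -0.28, limma adjusted p = 0.155 and 0.134) and without WT 2 and TG 5.

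The promoters of the 3 same-direction pairs that face away from each other, and of 2010320M18Rik for the opposite pairs, are given from RefSeq (GRCm38.p6, same window as above). The locations are chr19:25672190-25672489, minus strand for 2610016A17Rik, chr11:88718393-88718692, plus strand for C030037D09Rik, chr15:32244613-32244912, minus strand for Snhg18 and chr8:70776612-70776911, plus strand for 2010320M18Rik. Each window extends past the start of the protein-coding partner. Capitals mark matches on either strand to the 7 motifs searched.
2610016A17Rik: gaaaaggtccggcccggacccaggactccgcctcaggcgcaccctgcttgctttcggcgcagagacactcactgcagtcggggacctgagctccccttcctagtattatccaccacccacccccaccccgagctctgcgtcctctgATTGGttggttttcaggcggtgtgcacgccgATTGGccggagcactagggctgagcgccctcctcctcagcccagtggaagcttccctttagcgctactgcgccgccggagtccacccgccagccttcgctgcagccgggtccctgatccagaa
C030037D09Rik: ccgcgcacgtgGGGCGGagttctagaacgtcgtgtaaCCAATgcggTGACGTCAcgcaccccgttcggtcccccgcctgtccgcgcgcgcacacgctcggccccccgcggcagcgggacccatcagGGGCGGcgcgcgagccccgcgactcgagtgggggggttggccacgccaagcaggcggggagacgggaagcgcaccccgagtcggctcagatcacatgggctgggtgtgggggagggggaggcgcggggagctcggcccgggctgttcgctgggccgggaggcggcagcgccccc
Snhg18: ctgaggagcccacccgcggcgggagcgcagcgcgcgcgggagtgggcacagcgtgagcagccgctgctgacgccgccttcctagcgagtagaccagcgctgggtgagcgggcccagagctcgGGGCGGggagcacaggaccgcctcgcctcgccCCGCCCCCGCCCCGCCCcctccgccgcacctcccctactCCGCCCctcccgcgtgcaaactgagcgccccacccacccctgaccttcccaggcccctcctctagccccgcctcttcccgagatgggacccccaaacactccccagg
2010320M18Rik: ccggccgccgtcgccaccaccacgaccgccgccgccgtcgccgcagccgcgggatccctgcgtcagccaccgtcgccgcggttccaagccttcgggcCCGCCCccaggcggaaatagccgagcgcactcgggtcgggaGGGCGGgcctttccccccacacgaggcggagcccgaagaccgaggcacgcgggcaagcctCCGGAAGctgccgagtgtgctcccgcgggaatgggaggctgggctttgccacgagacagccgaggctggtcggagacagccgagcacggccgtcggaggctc

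The capitals in 2610016A17Rik are CCAAT boxes, those in Snhg18 are GC boxes (GGGCGG), and those in 2010320M18Rik are GC boxes and an ETS motif (spelled CCGGAAG). C030037D09Rik holds GC boxes, a CCAAT box and a cyclic AMP response element (spelled TGACGTCA). The RefSeq promoter table matched 43 of the 120 members within 50 bases of their start. CCAAT was found in 21 of the 43 (48.8%, against 37.4% of all 32817 promoters), the GC box in 18 (41.9% against 35.6%) and the ETS motif in 9 (20.9% against 8.86%). The cyclic AMP response element was found in 3 (6.98% against 1.79%), TATAAA in 4 (9.30% against 13.6%) and TTCNNNGAA, the core of STAT sites, in 3 (6.98% against 8.29%). The DR1 repeat, a site type of nuclear receptors such as PPARs, was in none of the 43. Overlaps between motifs were allowed, and these shares are descriptions with no test. The median GC content was 55.3% in the 43 promoters and 52.7% in all promoters, and the shares were not adjusted for it. The promoters with the ETS motif include those of Gm6712 and BC002059, whose transcripts match at 91.0% identity. Of the 13 matched members that fell 1 held the STAT core, and of the 11 that rose none did.

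The nearest tested protein-coding gene was found for all 120 members, at a median distance of 8099 bases. Both passed in the same direction in 19 pairs and in opposite directions in 11, only the lincRNA passed in 24, only the neighbour in 30 and neither in 36. These counts include lincRNAs that entered through 1 group alone, such as Gm44421 and A530065N20Rik. Of the 116 distinct neighbours 59 passed, beside 47.6% of protein-coding genes at 1 FPKM in 4 libraries. Across the 120 pairs Pearson's r of the log2 changes was 0.22 and Spearman's rho 0.26, as a description over pairs that share the same 8 libraries. Among 34 pairs within 10 kb that are not divergent 7 moved together and 4 apart, and among 54 farther pairs 8 and 3. D730003I15Rik, which fell from 3.03 to 1.74 FPKM (log2 change -0.55, adjusted p = 0.0175) with overlap between groups and lost its call in the 2 other scalings (adjusted p = 0.182 and 0.141), lies near the stress-response gene Atf3, which went from 24.1 to 1.92 FPKM (log2 change -2.87, adjusted p = 0.00110). 1700020I14Rik fell while its neighbour Chp1 went from 71.5 to 159.6 FPKM (log2 change 1.16, adjusted p = 0.000145). Neat1 fell while Frmd8 went from 2.57 to 2.65 FPKM (log2 change 0.05, adjusted p = 0.847).

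**Figure D4:**
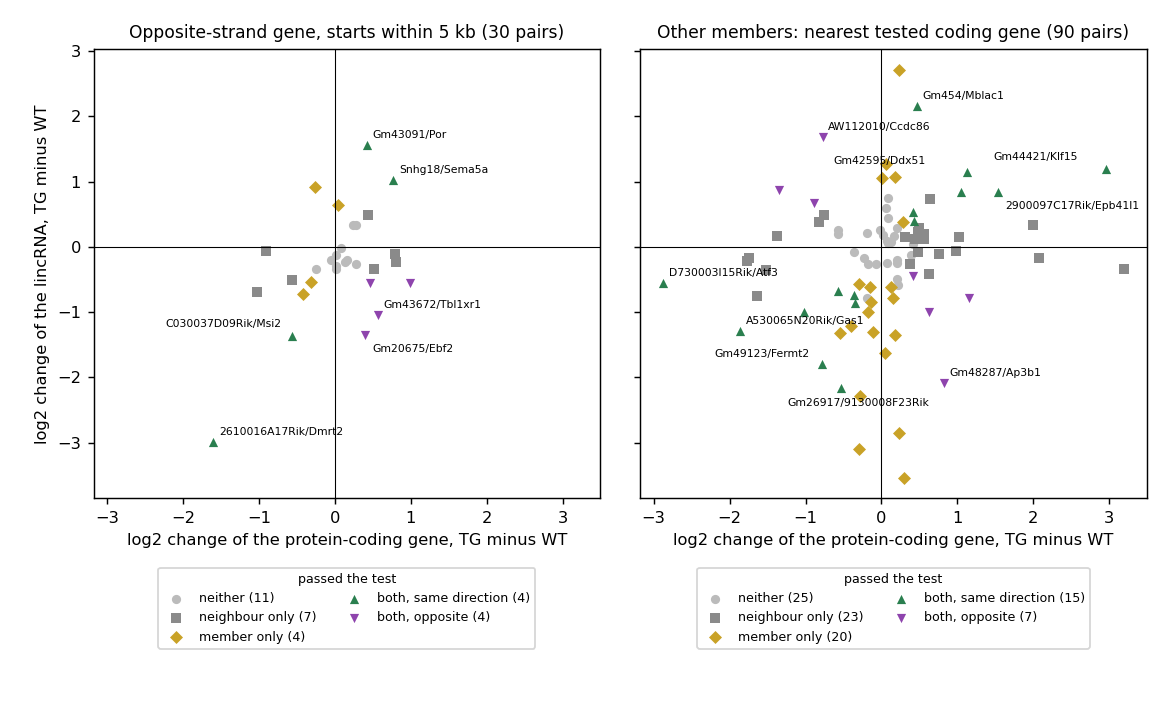
Log2 change of each lincRNA (y axis, TG minus WT) against that of a protein-coding gene (x axis). The left panel has the 30 genes on the opposite strand with starts within 5 kb, the right panel the nearest tested gene of the other members; symbols show which of the pair passed the test. In the left panel 4 pairs passed in the same direction and 4 in opposite directions, with 2610016A17Rik and Dmrt2 lowest at -2.995 and -1.60.

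Over single libraries, WT 1 held the highest WT value for 44 of the members (36.7%, against 26.7% of all tested genes) and TG 3 the highest TG value for 49 (40.8% against 27.5%). 2 members, chosen after their values were seen, were over 2-fold highest in both WT 2 and TG 5, the libraries with the most skeletal muscle marker RNA. 2310040G24Rik was at 1.42, 7.29, 2.43 and 0.676 FPKM in the WT mice and 1.79, 0.975, 0.678 and 6.14 FPKM in the TG mice. Gm12319 was at 0.713, 5.21, 1.90 and 1.22 FPKM in the WT mice and 0.940, 1.59, 0.613 and 3.91 FPKM in the TG mice. Both were high in 1 mouse of each group and neither passed the test. Gm12319 lies 709 bases, start to start, from the muscle enolase gene Eno3, which was at 24.2, 152, 9.90 and 8.09 FPKM in the WT mice and 12.95, 11.3, 21.3 and 84.7 FPKM in the TG mice. Without WT 2 and TG 5, 49 members passed (40.8%, against 32.7% of all tested genes), 17 higher and 32 lower (background 16.1% and 16.6%). This share includes members that entered through 1 group alone and had to differ, so it cannot be read as an excess over the background.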

How the data were processed

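RNA libraries were made with an Illumina TruSeq RNA kit from Trizol-extracted tissue, per the labels' protocols. Reads were handled with bcl2fastq, HISAT2 2.0.5 and featureCounts 1.5.0-p3 on mm10, per the submitters' processing notes. Annotation release, strand setting and FPKM divisor were not given in the sources used here. What the authors deposited is 1 table of FPKM per gene and library, with gene coordinates and biotypes.

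FPKM times gene length were whole multiples of 1 value per library (largest distance from a whole number 1.61e-07), which gave the recovered reads. The FPKM divisor implied by that value was not the number of recovered reads. Recovered reads over this divisor were 1.02 to 1.22 in WT and 0.822 to 0.883 in TG mice, so the deposited scaling differs between the groups from division by recovered reads. Genes that reached 0.5 FPKM in 4 or more libraries were tested with limma 3.58.1 (R 4.3.3; trended eBayes, two-sided, no covariates) on log2(FPKM + 1), with Benjamini-Hochberg adjustment over all 12508. The pseudocount of 1 understates changes of low genes. In simulated libraries for TG against WT the fit recovered 98% of genes changed 2-fold and 100% of those changed 4-fold, over 11997 genes, with 10 false calls. The simulation gave every gene the same spread between mice and changed only genes with a WT mean of at least 1 FPKM. It did not include the mitochondrial difference between the groups. Members varied more between mice than all tested genes did, so these shares do not give the recovery of lincRNA changes. Copies were searched with blastn 2.17.0. RefSeq gave promoters, microRNAs and synonyms, and GENCODE M21 listed 116 members at the table's coordinates as well as 4 at others.

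The members, lists and motifs were chosen with earlier results of these data known. Named were the 10 members with the highest mean, the 15 largest rises and falls without overlap, members with a symbol of their own, divergent members, list members and those at the floor; not all of these are described singly, and 1 is not reported here. 6720427I07Rik, D730003I15Rik, Gm27202 and 2310040G24Rik were added after their values were seen. Other normalizations, filters, pseudocounts, voom, a replicate block and libraries left out were tried, the pair WT 2 and TG 5 after seeing the data.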

Additional observations from a re-analysis of the deposited data

Results flagged for a closer look

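In 11 of 140 groups of 4 mice, 1 mouse stood apart from the other 3 of its group by Dixon's test at the 95% level; 5% of the groups would be 7. The ribosomal-copy row Gm10076 was at 258 FPKM in WT 1, against 49.4 to 72.5 FPKM in the other WT mice. Epb41l4aos was low in WT 2, at 13.3 FPKM against 19.5 to 20.1, and high in TG 3, at 20.1 FPKM against 14.7 to 15.6. Bvht was at 16.6 FPKM in WT 5, against 3.83 to 5.95 FPKM. Gm9961 was at 0.307 FPKM in TG 1 and at 0 in the other TG mice. Snhg12 was low in TG 1, at 2.39 FPKM against 3.52 to 3.60 FPKM.

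Gm49123 was at 6.92 FPKM in WT 5, against 4.51 to 4.80 FPKM. WT 1 was highest for Gm34961, at 3.62 FPKM against 1.24 to 1.56, and for A730020M07Rik, at 1.58 FPKM against 1.04 to 1.05. 5033430I15Rik stood at 2.45 FPKM in WT 3, against 1.43 to 1.56 FPKM, and Gm48832 at 2.60 FPKM in TG 5, against 1.61 to 1.65 FPKM. WT 1 accounted for 3 of the 11, and WT 5 and TG 1 for 2 each.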

How the results depend on the processing

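The count of 54 members past the threshold lay between 48 and 58 under the other filters, pseudocount, normalizations, voom and left-out libraries, and was 39 at an adjusted p of 0.01 (32.5%, background 29.2%). Without any filter it was 48 (18 higher, 30 lower). Requiring a change of 2-fold left 27, of which 10 were higher and 17 lower (22.5%, background 12.9%). This share, like the counts before it, includes members that entered through 1 group alone and had to differ. Among the 107 others 7 were higher (6.54%, background 5.12%) and 10 lower (9.35%, background 7.78%). Division by all recovered reads and rescaling without abundant genes each gave 31 higher and 23 lower (45%, background 55.8% and 54.6%), with 42 calls shared with the deposited scaling. Leaving out each mouse in turn gave 50 to 58 calls, 17 to 22 higher and 30 to 36 lower. Of the 70 named members 41 passed, and 34 of these passed under all 20 alternatives that keep the threshold. Of the named members that did not pass, 8 passed under at least 1 alternative. The named set includes the largest rises and falls among members that passed, and members that entered through 1 group alone. These counts are therefore partly fixed by the choice and give no share for all members. Tmem250-ps changed direction: rescaled without abundant genes its log2 change was 0.31 (limma adjusted p = 0.0416), against -0.06 as deposited; the cause was not tested.

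Same-numbered WT and TG mice did not deviate together (correlations of -0.238 to 0.0373 over 4 pairs). The titles do not say whether the numbers pair the mice. These correlations cannot decide it, since other differences between mice enter them (0.387 for WT 2 and TG 5). With a replicate block 54 members passed (45%, background 38.8%), 20 higher and 34 lower, 2010320M18Rik lost its call (limma adjusted p = 0.0822), and 5 small RNA hosts fell in place of 9. Depth limits the low members: 17 had under 100 reads in all 8 libraries together, and values near 0 rest on a few reads.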
